A study of Homo sapiens with 6 samples.

Results

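The proteasome subunit genes were examined in U87-MG, an established human glioblastoma cell line, as a set of 41 genes among the 61731 genes and loci of the expression table. The set holds the protein-coding genes whose symbols are PSMA, PSMB, PSMC, PSMD or PSME followed by digits, without PSMB8 and PSMB9. Of these, 17 belong to the core particle (PSMA and PSMB), 20 to the regulatory particle (PSMC and PSMD) and 4 are activators (PSME). RNA came from 3 libraries of negative control cells (U87_NC, labelled normal control) and 3 libraries labelled as CHRM knockdown (U87_KD). The study made the knockdown cells with a lentivirus against CHRM3, the M3 muscarinic acetylcholine receptor, and none of the sources used here says which knockdown sequence these cells carried or whether replicate libraries stem from separate cultures. The p-values therefore measure only the spread between these libraries, which may be technical. CHRM3 itself was 0.02, 0.09 and 0.13 TPM in control replicates 1, 2 and 3 and 0.13, 0.01 and 0.02 TPM in knockdown-labelled replicates 1, 2 and 3. The groups overlapped (exact two-sided permutation p = 0.80, smallest possible 0.10), so a reduction of the targeted gene was not detectable in this table, where the gene is close to 0 in every library. The values therefore neither bear out nor contradict the label, the study's own assays of the knockdown were not analysed here, and the groups are called control and knockdown-labelled.

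The proteasome is the large protease that degrades proteins tagged with ubiquitin in the cytosol and the nucleus. Its core particle is a barrel of stacked rings, in which alpha subunits form the outer rings and gate the channel, and beta subunits form the inner rings that carry the proteolytic sites. The regulatory particle caps the barrel, and its base of ATPases and its lid recognise, strip of ubiquitin, unfold and feed in the substrate. In cells exposed to interferon, inducible beta subunits replace the constitutive catalytic ones and the activator PA28 can take the place of the cap, which changes the peptides that are made, among them those shown on MHC class I molecules.

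Most subunit genes were slightly lower in the knockdown-labelled libraries, whereas an inducible catalytic subunit and both subunits of the PA28 alpha-beta activator were higher. Levels are given in TPM, a gene's length-corrected share of a library, and fold changes are differences of log2(TPM + 1), knockdown-labelled minus control. Of the 41 genes, 39 averaged 1 TPM or more across the 6 libraries and were tested with limma. The other 2, PSMA8, known from testis, and PSMB11, known from the thymus, were between 0 and 0.04 TPM and at 0 TPM. At an adjusted p under 0.05, 29 of the 39 members were lower, against 24.0% of the 13722 genes tested, and 3 members were higher, against 12.1% (36.1% of tested genes in either direction). When the fit was limited to the 5285 genes that averaged 20 TPM or more, as every tested member did, the same 29 and 3 members were called, against 38.7% of these genes lower and 19.6% higher, or 58.2% in all. The 7 members that did not pass were PSMA3, PSMB3, PSMB6, PSMD1, PSMD5, PSMD9 and PSME4. In bulk RNA, fewer cells of a kind and less RNA per cell cannot be told apart.

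The sizes were small. The median log2 fold change was -0.17 over the 39 members and -0.06 over all tested genes. With the TPM as deposited, no tested member moved by as much as 0.5 on the log2 scale. Of all tested genes, 8.02% reached that size together with the adjusted p. The range of the members ran from -0.45 for PSMC4 to 0.45 for PSME2. These differences were still large against the spread between libraries, since the median coefficient of variation over the tested members was 1.67% in the controls and 1.80% in the knockdown-labelled libraries. All 3 knockdown-labelled libraries lay below all 3 controls for 31 members, against 32.8% of tested genes (42.7% of those above 20 TPM), and above them for 3 members, against 17.4%. Together the 41 genes held 1.10% ± 0.00247 of a control library's TPM and 0.977% ± 0.00468 of a knockdown-labelled library's TPM (SD, n = 3 each).

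**Figure D1:**
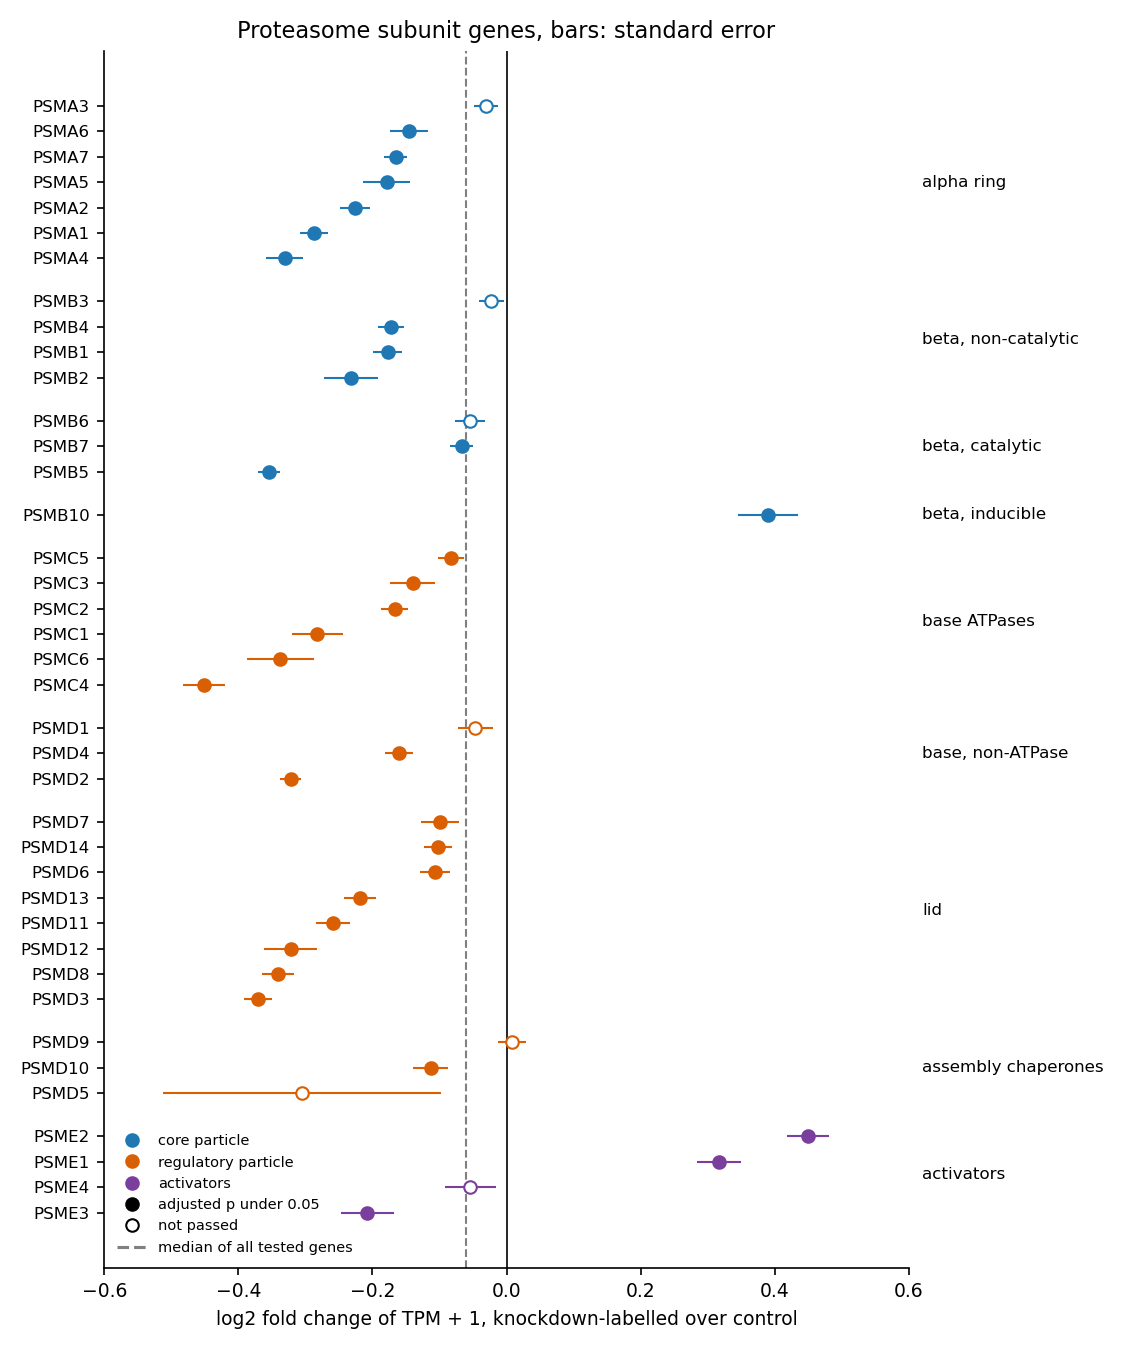
Log2 fold change of TPM + 1 (x axis, knockdown-labelled over control, bars are standard errors from limma) of the 39 tested members (rows), grouped by their place in the proteasome. Of 29 filled points left of 0 and 3 right of it, the 3 are PSMB10, PSME1 and PSME2; after median-of-ratios scaling, which moves all points right by about the distance from the dashed line to 0, PSMA3, PSMB3, PSMB6, PSMB7, PSMD1 and PSME4 lie right of 0.

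The scaling of the libraries bears on the members nearest to 0. TPM has a fixed sum, and median-of-ratios scaling, which sets the typical gene to no change, moved the median of all tested genes from -0.06 to 0.0024. Under it, 21 members were lower, against 16.4% of tested genes, and 4 were higher, against 16.8%, where PSMD9 joined PSMB10, PSME1 and PSME2. For this scaling, here and below, shares were taken over all tested genes only, and not over those above 20 TPM. With the TPM as deposited, the share of lower genes was 24.0% over all tested genes and 38.7% above 20 TPM. Under all 18 other settings of the fit, 20 of the 29 members stayed lower past the threshold, and PSMB10, PSME1 and PSME2 stayed higher. The 9 that did not were PSMA5, PSMA6, PSMB7, PSMC3, PSMC5, PSMD6, PSMD7, PSMD10 and PSMD14. Of these, PSMB7, PSMC3, PSMC5, PSMD7 and PSMD10 also lost the call when single libraries of either group were left out, with adjusted p of up to 0.0761, 0.0608, 0.0669, 0.101 and 0.0557. PSMB7 lost it without any library but knockdown-labelled replicate 2, and PSMD7 without any but knockdown-labelled replicate 1. PSMC3 and PSMD10 lost it without knockdown-labelled replicate 2 or control replicate 2 or 3, and PSMC5 without replicate 1 or 2 of either group.

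**Figure D2:**
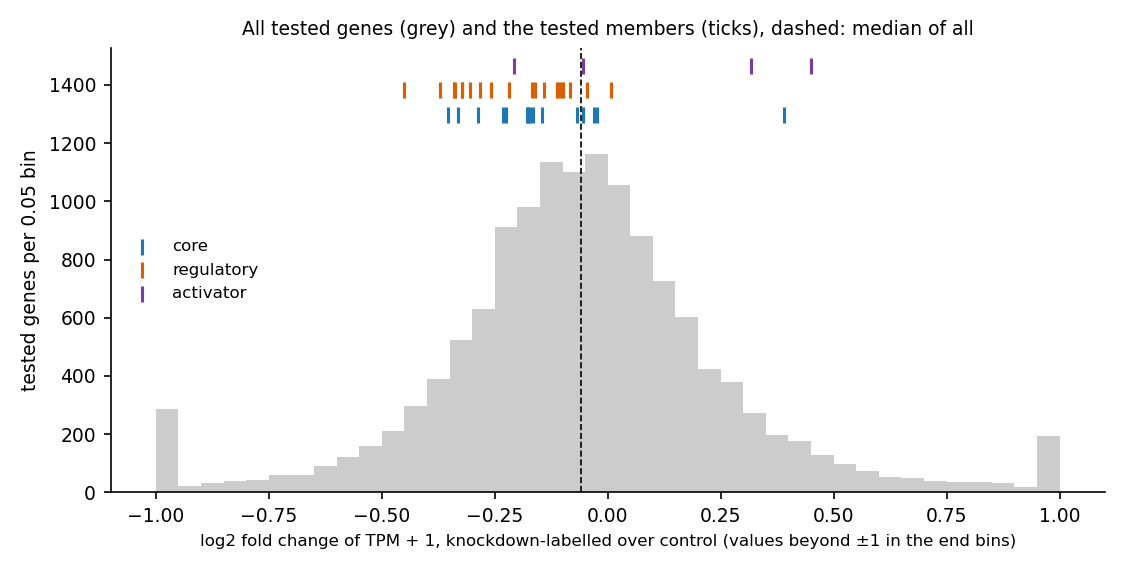
Number of tested genes per bin of log2 fold change (grey, y axis, knockdown-labelled over control, TPM + 1) with a tick above for each of the 39 tested members. The ticks of the core and the regulatory particle lie mostly left of the dashed median of all genes at -0.06, inside the bulk of the distribution, and 3 ticks stand apart on the right.

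The members differed in level by over an order of magnitude. In the controls, the most abundant was PSMD2 with 948.4 ± 6.64 TPM, followed by PSMA7 with 816.2 ± 14.2 TPM, PSMB7 with 716.9 ± 0.824 TPM and PSMB1 with 657.7 ± 9.82 TPM (SD, n = 3 each). The lowest tested members were PSMB10 with 51.05 ± 2.63 TPM, PSMD5 with 39.75 ± 12.5 TPM and PSME4 with 23.05 ± 0.384 TPM (SD, n = 3 each). Many neighbours in this order lay within each other's spread, among them PSMB6 at 324.5 ± 5.77 TPM and PSMA1 at 324.1 ± 7.19 TPM (SD, n = 3 each). PSMB6 was at 312.5 ± 5.16 TPM and PSMA1 at 265.5 ± 1.10 TPM in the knockdown-labelled libraries, so the pair was apart there.

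**Figure D3:**
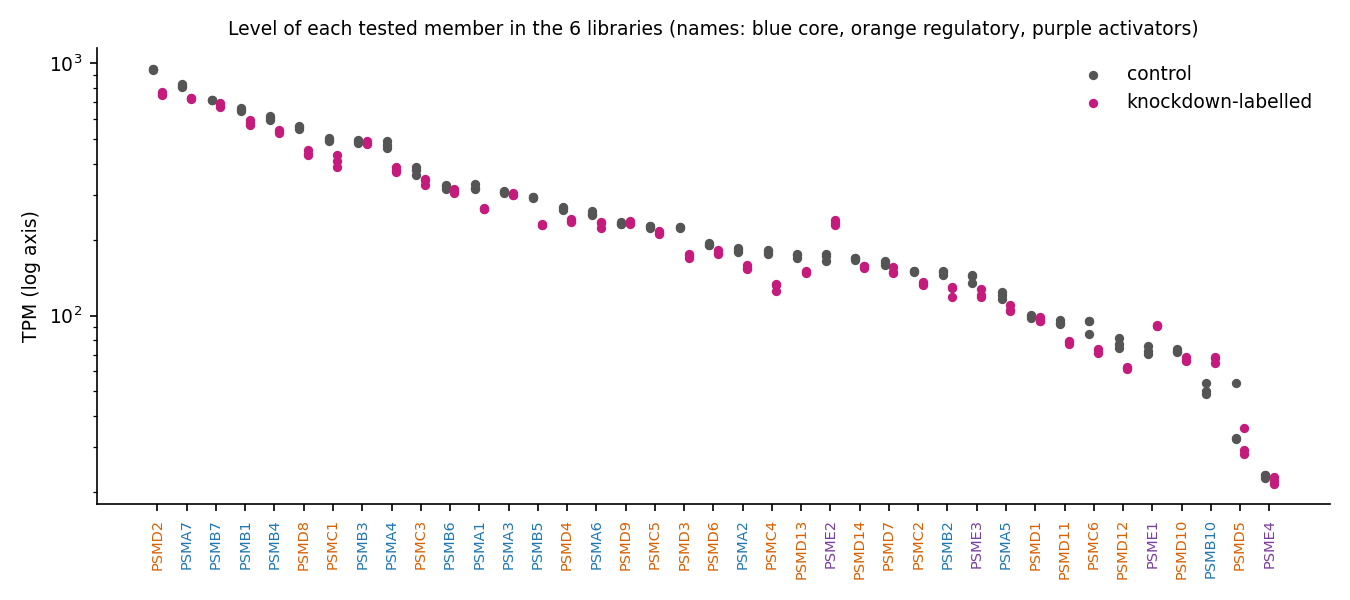
TPM on a log axis of the 39 tested members in the 3 control (grey) and 3 knockdown-labelled (magenta) libraries, ordered by the control mean. Levels run from 948.4 TPM for PSMD2 to 23.05 TPM for PSME4 in the control mean; the 3 members with magenta clearly above grey are PSME2, PSME1 and PSMB10, and the single high grey point of PSMD5 is control replicate 2.

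In the alpha ring, 6 of the 7 tested subunits were lower and the median log2 fold change was -0.18. The share of lower genes was 24.0% over all tested genes (38.7% of those above 20 TPM). After median-of-ratios scaling 5 alpha subunits were lower, against 16.4% of tested genes. PSMA4 was 472.64, 463.82 and 491.41 TPM in the controls and 377.19, 386.55 and 370.85 TPM in the knockdown-labelled libraries. It fell by 20.5%, or -0.33 ± 0.0275 in log2 units (± standard error, limma adjusted p = 0.00029). PSMA1 was 332.18, 318.38 and 321.80 TPM against 264.53, 266.67 and 265.20 TPM (log2 fold change -0.29, limma adjusted p = 0.000181). In both genes the groups were far apart compared with the spread within them. The remaining 4 called alpha subunits had log2 fold changes between -0.23 (PSMA2) and -0.15 (PSMA6). PSMA3 was at -0.03 (adjusted p = 0.234), and at 0.04 after median-of-ratios scaling.

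Of the constitutive beta subunits, PSMB1 to PSMB7, 5 of 7 were lower, among them 2 of the 3 that carry the proteolytic sites. The share over all tested genes was 24.0% (38.7% of those above 20 TPM). After median-of-ratios scaling 4 of the 7 were lower, against 16.4% of tested genes. Whether the catalytic subunits differed from one another in their change was not tested. PSMB5, the chymotrypsin-like subunit (ENSG00000100804, chr14:23016543-23035230), was 292.75, 294.72 and 294.94 TPM in the controls and 230.67, 229.54 and 229.47 TPM in the knockdown-labelled libraries. It fell by 21.8%, which is -0.35 ± 0.0162 in log2 units (± standard error, limma), and its adjusted p of 2.71e-05 was the lowest of all members. PSMB6, the caspase-like subunit, was 329.18, 326.37 and 318.08 TPM against 306.81, 316.86 and 313.83 TPM. The groups of PSMB6 were next to each other without overlap, and its log2 fold change of -0.05 did not pass (adjusted p = 0.10). PSMB7, the trypsin-like subunit, was 716.27, 716.62 and 717.84 TPM against 671.49, 696.81 and 684.84 TPM. The log2 fold change of PSMB7 was -0.07 (adjusted p = 0.0263), and 0.0029 after median-of-ratios scaling (adjusted p = 0.909). Of the subunits without a proteolytic site, PSMB2 was 149.19, 149.87 and 144.39 TPM against 118.45, 130.06 and 128.91 TPM, with a log2 fold change of -0.23 (adjusted p = 0.00573). PSMB1 and PSMB4 were lower by log2 fold changes of -0.18 and -0.17, and PSMB3 was at -0.02 (adjusted p = 0.377).

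The 3 members that rose were PSMB10, PSME1 and PSME2, and all 3 kept the call under each of the 18 settings. As background, these genes are known to respond to interferon gamma, and the labels name no interferon treatment. PSMB10 encodes the inducible counterpart of PSMB7 (ENSG00000205220, chr16:67934502-67937087). It was 48.96, 54.00 and 50.19 TPM in the controls and 68.34, 68.16 and 64.94 TPM in the knockdown-labelled libraries. Every knockdown-labelled library was above every control, with a rise of 31.5% (0.39 ± 0.0445 in log2 units, ± standard error, limma adjusted p = 0.001). The gene remained a minor form, since it made up 6.65% ± 0.32 of the summed TPM of PSMB7 and PSMB10 in the controls and 8.94% ± 0.289 under the knockdown label (SD, n = 3 each, exact two-sided permutation p = 0.10, the smallest possible). The inducible counterparts of PSMB5 and PSMB6 are PSMB8 and PSMB9, which lie outside the set. PSMB9 rose from 18.6 ± 1.23 to 25.7 ± 1.29 TPM (limma adjusted p = 0.00214), and PSMB8 was 58.7 ± 4.21 and 62.4 ± 2.19 TPM (SD, n = 3 each, limma adjusted p = 0.28).

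PSME1 and PSME2 encode the alpha and beta subunits of PA28, the ring that opens the core without ATP. PSME1 (ENSG00000092010, chr14:24136158-24138967) was 72.65, 70.39 and 75.71 TPM in the controls and 90.59, 91.73 and 90.77 TPM in the knockdown-labelled libraries. It rose by 24.8% (log2 fold change 0.32, limma adjusted p = 0.000638). PSME2 (ENSG00000100911, chr14:24143362-24147570) was 172.79, 163.92 and 174.98 TPM against 232.50, 238.62 and 228.76 TPM, the largest rise of the set at 0.45 ± 0.0315 in log2 units (± standard error, limma adjusted p = 0.000147). In each gene every knockdown-labelled library was above every control. The 2 genes are neighbours, 4394 bases apart on GRCh38. PSME1 overlaps EMC9 on the opposite strand, which ranged from 20.90 to 23.98 TPM in the controls and from 26.97 to 33.42 TPM in the knockdown-labelled libraries. The strand setting of the authors' quantification is not given in the sources used here, and its part in the rise of PSME1 was not tested.

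The other activators were not higher. PSME3, the nuclear PA28 gamma subunit, was 144.96, 134.81 and 143.57 TPM against 118.24, 120.99 and 126.96 TPM, and fell by 13.5% (log2 fold change -0.21, limma adjusted p = 0.00813). PSME4, the PA200 activator, was 23.22, 23.32 and 22.61 TPM against 22.80, 21.54 and 22.17 TPM, where the groups overlapped (adjusted p = 0.321). The summed TPM of PSME1 and PSME2 was 1.73 ± 0.0285 times that of PSME3 in the controls and 2.66 ± 0.124 times under the knockdown label (SD, n = 3 each, exact two-sided permutation p = 0.10, the smallest possible).

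**Figure D4:**
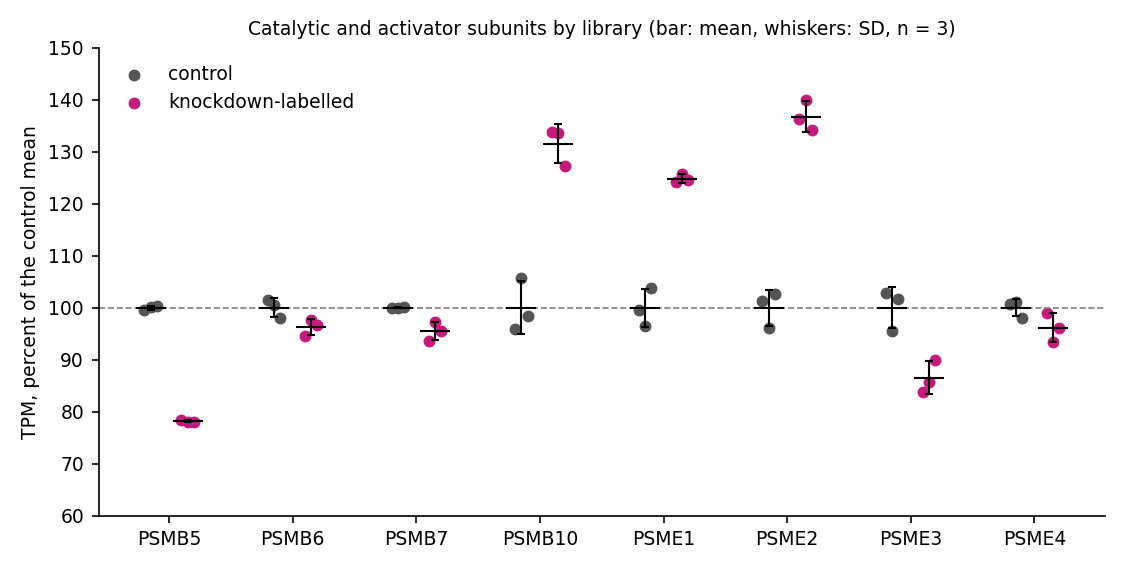
TPM of each library as a percent of the control mean (y axis, from 60 to 150) for the catalytic and activator subunits; grey points are controls, magenta points knockdown-labelled libraries, bars the mean and whiskers the SD (n = 3). PSMB10, PSME1 and PSME2 lie above all their controls, and PSMB5, PSMB6, PSMB7 and PSME3 below. Of these, PSMB6 and PSMB7 sit just under 100 (just over it after median-of-ratios scaling), and PSME4 overlaps.

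Promoter windows of RefSeq (GRCh38.p14, 250 bases before to 50 after a start) were found for 36 of the 41 members. A gene can have several starts, and the 36 members had 42 windows in all, with more than 1 for 5 members. A gene counts as holding a motif when any of its windows does, and shares are given over all 27305 genes with a window. Each was searched on both strands for the core of the interferon-stimulated response element, GAAA repeated after a gap of any 2 bases, which occurred in 4.38% of these genes and in 3.57% of all 35116 windows. The motifs here and below were chosen after the values were seen, so the counts of members that hold them are no test. The interferon core occurred in all 3 members that rose, in 2 of the 25 that fell and that had a window, and in 0 of the 6 that did not pass. The sites of the first 3 share the letters GAAAGCGAAA, read on one strand or the other. This form was read off those sites, so its presence in them is no test. It was found in 0.124% of all genes with a window and in no other member with a window. The 30 bases around each site are shown on the gene's strand, with the motif in capitals, because every member that rose carries this motif; the last 2 fell and carry other forms of it.
PSMB10: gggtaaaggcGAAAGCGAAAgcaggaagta
PSME1: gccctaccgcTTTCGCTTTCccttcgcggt
PSME2: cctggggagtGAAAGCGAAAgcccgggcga
PSMB4: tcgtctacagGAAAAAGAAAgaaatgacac
PSMA4: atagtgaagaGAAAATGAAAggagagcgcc
They lie at chr16:67936852-67936881 on the minus strand, chr14:24136189-24136218 on the plus strand, chr14:24146619-24146648 on the minus strand, chr1:151399495-151399524 on the plus strand and chr15:78540155-78540184 on the plus strand. The motif starts 21 and 28 bases before the RefSeq start in PSMB10 (67936850) and PSME2 (24146610) and 5 bases after it in PSME1 (24136194). These starts lie inside the GENCODE gene bounds given above, which take in the outermost transcript. A match of letters describes the window and does not show that a factor binds there.

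The NF-Y box CCAAT, searched on both strands, occurred in 39.7% of all genes with a window. It was present in 15 of the 25 members that fell, in 2 of the 6 that did not pass and in 0 of the 3 that rose. The core of the antioxidant response element, TGACNNNGC, through which the factor NRF1 is known to raise proteasome genes, occurred on either strand in 16.1% of them. It was found in 5 of the 25 members that fell, in 2 of the 3 that rose and in 5 of the 6 that did not pass. As examples, sites in 3 of these 5 members that fell are shown in the same way. PSMD3 has a further site, and the sites of the other members with the element are not shown. Among these members, PSME1 and PSME2 rose, and PSMB3, PSMD1, PSMD5, PSMD9 and PSME4 did not pass.
PSMD3: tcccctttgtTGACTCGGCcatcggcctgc
PSMC4: acagaggccgGCTTGGTCActatggaggag
PSMD12: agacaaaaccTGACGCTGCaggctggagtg
These lie at chr17:39980760-39980789 on the plus strand, chr19:39971182-39971211 on the plus strand and chr17:67366723-67366752 on the minus strand.

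In the base of the regulatory particle, all 6 ATPases were lower, with log2 fold changes from -0.45 to -0.08 and a median of -0.22. The share of lower genes over all tested genes was 24.0% (38.7% of those above 20 TPM). After median-of-ratios scaling 4 ATPases were lower, against 16.4% of tested genes. PSMC4 (ENSG00000013275, chr19:39971005-39981441) was 181.51, 179.15 and 174.64 TPM in the controls and 125.22, 133.89 and 131.74 TPM in the knockdown-labelled libraries. It had the largest fall of all members, by 27.0% (-0.45 ± 0.0318 in log2 units, ± standard error, limma adjusted p = 0.000149). PSMC6 was 84.79, 95.26 and 95.48 TPM against 72.60, 73.53 and 71.04 TPM (log2 fold change -0.34, limma adjusted p = 0.00297). The groups did not overlap in either gene, and the control libraries of PSMC6 had a coefficient of variation of 6.65%. PSMC1 fell by 17.7%, and 2 of its pseudogenes were listed at over 1 TPM, of which PSMC1P5 ranged from 8.28 to 106.68 TPM over the 6 libraries without separating the groups, so the division of reads between PSMC1 and its copies is uncertain. Of the base subunits without ATPase activity, PSMD2, a large scaffold subunit, fell from 948.4 ± 6.64 to 758.4 ± 11.1 TPM (SD, n = 3 each, limma adjusted p = 4.05e-05). PSMD4, a ubiquitin receptor, was lower by -0.16 in log2 units, and PSMD1, the other scaffold, was at -0.05 (adjusted p = 0.219).

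All 8 PSMD genes of the lid were lower, with a median log2 fold change of -0.24. Of all tested genes, 24.0% were lower (38.7% of those above 20 TPM). After median-of-ratios scaling 5 lid genes were lower, against 16.4% of tested genes. PSMD3 was 222.79, 224.78 and 224.89 TPM against 169.58, 175.36 and 174.45 TPM (-0.37 ± 0.0209 in log2 units, ± standard error, limma adjusted p = 6.39e-05). PSMD8 was 564.85, 557.61 and 551.11 TPM against 436.19, 453.70 and 431.30 TPM (log2 fold change -0.34, limma adjusted p = 0.000139). PSMD14, the enzyme that cuts the ubiquitin chain from the substrate, was 169.19, 168.43 and 166.79 TPM against 157.78, 154.27 and 157.69 TPM. The groups of PSMD14 did not overlap, at a log2 fold change of -0.10 (adjusted p = 0.00937, and 0.30 after median-of-ratios scaling). PSMD11, PSMD12 and PSMD13 lay between, at -0.26, -0.32 and -0.22, and PSMD6 and PSMD7 were at -0.11 and -0.10.

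For the 3 PSMD genes whose products help to assemble the base and leave the finished particle, 1 passed the test. PSMD10, also known as gankyrin, was lower by a log2 fold change of -0.11 (adjusted p = 0.0171). PSMD9 was 234.70, 230.44 and 230.73 TPM against 231.98, 230.07 and 237.60 TPM, with overlapping groups (adjusted p = 0.807). PSMD5 was 32.73, 54.16 and 32.37 TPM against 29.40, 35.91 and 28.32 TPM, where control replicate 2 stood apart. Its log2 fold change was -0.31 with all libraries and -0.07 without that library, and neither passed (adjusted p = 0.302 and 0.679).

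Core and regulatory genes were compared as groups. Of all tested genes, 24.0% were lower and 12.1% higher (38.7% and 19.6% of those above 20 TPM). The median log2 fold change was -0.17 over the 15 tested core genes, of which 11 were lower and 1 higher. It was -0.19 over the 20 regulatory genes, of which 17 were lower. The difference of 0.020 between these medians turned to -0.017 without control replicate 2 and to -0.0042 after quantile normalization, so it has no stable sign. Summed over members, the core was 5786.9, 5739.3 and 5790.7 TPM in the controls and 5161.7, 5236.2 and 5168.8 TPM in the knockdown-labelled libraries. The regulatory particle was 4807.3, 4849.3 and 4822.7 TPM against 4123.3, 4113.9 and 4098.8 TPM. The knockdown-labelled libraries were lowest in both sums, by a change of -10.1% and -14.8% of the control mean. The ratio of core to regulatory TPM was 1.20 ± 0.0109 in the controls and 1.26 ± 0.0105 under the knockdown label (SD, n = 3 each, no test made). A sum weighs abundant genes most. PSMD2 is the most abundant member, and its part in the change of the sums was not tested.

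**Figure D5:**
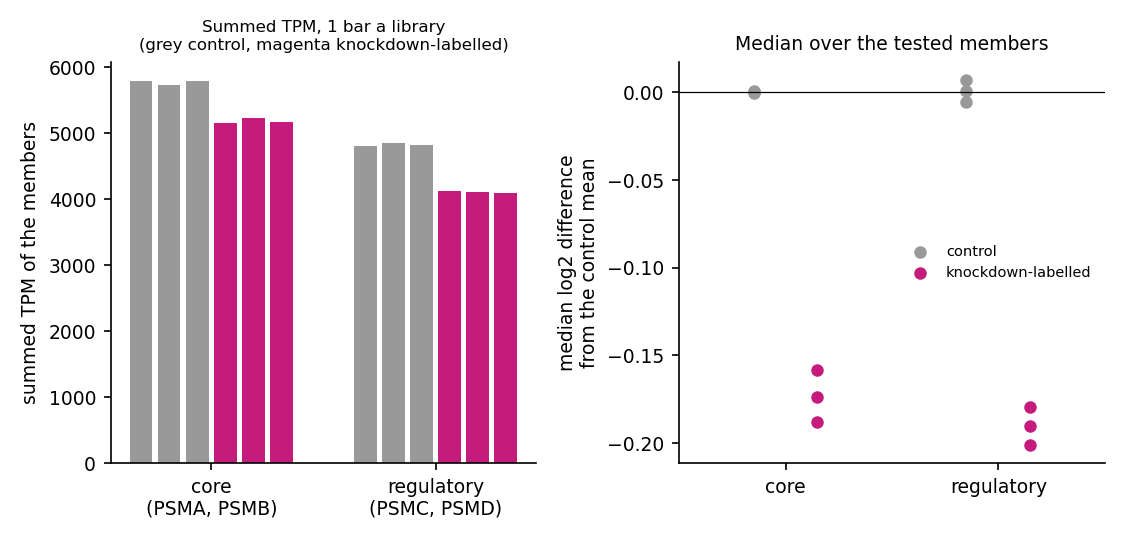
Left, TPM summed over the core and over the regulatory genes, 1 bar a library, from 0; right, the median over tested members of the log2 difference from the control mean, 1 point a library (grey control, magenta knockdown-labelled). The knockdown-labelled libraries lie below the controls on both sides, with medians from -0.19 to -0.16 in the core and from -0.20 to -0.18 in the regulatory particle.

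Other genes of the pathway were taken from lists of 34 genes. Of the 33 that were tested, 12 were lower and 3 higher, against 24.0% and 12.1% of all tested genes (38.7% and 19.6% of those above 20 TPM). Their median log2 fold change was -0.07, beside -0.06 over all tested genes. The subunit ADRM1, a ubiquitin receptor of the base, fell from 371.8 ± 3.19 to 325.2 ± 2.93 TPM (SD, n = 3 each), and the small lid subunit SEM1 rose from 864.4 ± 30.6 to 930.0 ± 16.1 TPM (SD, n = 3 each, limma adjusted p = 0.0289). None of the 5 core assembly factors, POMP and PSMG1 to PSMG4, passed the test in limma, and 1 of them, PSMG2, had an unadjusted p under 0.05. Of 6 genes of the NRF1 route, 3 were lower and 1 higher. NFE2L1, which encodes NRF1, fell from 116.5 ± 3.84 to 93.6 ± 3.82 TPM (SD, n = 3 each, log2 fold change -0.31, limma adjusted p = 0.00148). VCP, the ATPase that extracts ubiquitinated proteins and takes part in the release of NRF1, fell by a log2 fold change of -0.25, and SYVN1 was lower at -0.30 (limma adjusted p = 0.0478). SEL1L, a partner of SYVN1 in the membrane of the endoplasmic reticulum, was higher at 0.21 (limma adjusted p = 0.0382), and DDI2 and NGLY1 were at 0.13 and 0.05 without passing. AKIRIN2, which brings proteasomes into the nucleus, was at 0.06 (adjusted p = 0.39). Of 6 tested shuttle receptors, which carry ubiquitinated proteins to the proteasome, 4 were lower, against the same 24.0% of all tested genes, with UBQLN1 at -0.16 (limma adjusted p = 0.00313). UBB, a polyubiquitin gene, was lower at -0.22.

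How deeply each library was sequenced cannot be read from TPM. Between 13518 and 13664 genes reached 1 TPM in each library, and mitochondrial transcripts took 5.32% to 5.47% of the controls and 4.41% to 4.87% of the knockdown-labelled libraries. The 6 mesenchymal markers of U87-MG were all tested, and 4 were lower and 2 higher. The shares were 24.0% and 12.1% of all tested genes (38.7% and 19.6% of those above 20 TPM). Their summed TPM was 10407.4 to 10690.1 in the controls and 10125.7 to 10350.8 in the knockdown-labelled libraries. Of 5 glial markers 4 were below 1 TPM in every library, GFAP was at 1.16 ± 0.219 and 1.13 ± 0.30 TPM (SD, n = 3 each) and the summed TPM was 1.52 to 2.28 in the controls and 1.59 to 2.57 in the knockdown-labelled libraries. All 5 leukocyte and all 3 endothelial markers were below 1 TPM in every library, with TYROBP and CD3E at 0 and sums of 0.27 to 0.37 and 0.04 to 0.25 TPM in the controls and of 0.16 to 0.48 and 0.05 to 0.08 TPM in the knockdown-labelled libraries. The 5 proliferation markers, MKI67, TOP2A, PCNA, CCNB1 and MCM2, were all lower, against the same 24.0% of all tested genes (38.7% of those above 20 TPM). Their summed TPM was 728.4 to 739.1 in the controls and 571.2 to 604.0 in the knockdown-labelled libraries. With mitochondrial transcripts left out, 30 members were lower and 3 higher, and the medians of the core and the regulatory particle were -0.18 and -0.20. The part of proliferation in the fall of the proteasome genes was not tested.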

How the data were processed

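Total RNA of U87-MG cells, 3 control and 3 knockdown-labelled libraries, was sequenced by the study. A deposited table gives TPM per gene with 2 decimals, as the authors computed it, and 190 of its loci carry assembly names (MSTRG). The submitters' processing notes name fastp, RSEM and GRCh38.p13, without versions, and the aligner, annotation and strand setting are not given in the sources used here. TPM keeps no depth, so no counting error is given. Columns were matched to samples by title. Of 61541 Ensembl identifiers, 61369 had a symbol, and gene types and coordinates (GRCh38) came from GENCODE 29.

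Log2(TPM + 1) was fitted with limma 3.58.1 in R 4.3.3 (lmFit, eBayes with a mean-variance trend, group as the only term) for genes averaging 1 TPM or more, with Benjamini-Hochberg adjustment over all of them, and was tested on simulated data. The study states no test for these libraries. Members were called at an adjusted p under 0.05. Catalytic, activator and PSMD14 genes and the 4 largest called falls and rises of each particle are given by library. The members and lists were chosen with earlier results of these data known, and the promoter motifs and the 20 TPM limit after the values were seen. Alternatives varied the pseudocount, the limit on low values, the scaling, the genes kept, the trend, the replicate block, the call rule, the particle lists and each library.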

Additional observations from a re-analysis of the deposited data

How the results depend on the processing

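When a change of 0.5 in log2 units was also required of the TPM as deposited, 0 members were lower and 0 higher in limma. No member moved that far there, against 8.02% of all tested genes. PSME2 passed 0.5 at 0.52 after median-of-ratios scaling (limma adjusted p = 6.44e-05) and at 0.51 after quantile normalization (limma adjusted p = 9.44e-05). Median-of-ratios scaling kept direction and call for 25 of the 39 members, and the median log2 fold changes of the core and the regulatory particle were -0.10 and -0.12. They were -0.15 and -0.14 after quantile normalization, with a core minus regulatory difference of -0.0042, and -0.18 and -0.20 without mitochondrial transcripts. Without PSMA8, PSMB10, PSMB11, PSMD5, PSMD9 and PSMD10, the regulatory median was -0.22 and the difference 0.043. Leaving out single libraries gave core medians of -0.18 to -0.16, regulatory medians of -0.20 to -0.16, differences of -0.017 to 0.031, 24 to 27 members lower and 3 higher. Signs turned only near 0. After median-of-ratios scaling PSMA3 was 0.040, PSMB3 0.047, PSMB6 0.016, PSMB7 0.0029, PSMD1 0.023 and PSME4 0.013, and after quantile normalization PSMA3 was 0.019, PSMB3 0.025, PSMD1 0.023 and PSME4 0.032. PSMD9 was -0.0048 without mitochondrial transcripts and between -0.0057 (without knockdown-labelled replicate 3) and 0.017 with single libraries left out. Both scalings set the median of all genes near 0, and for the other settings the cause was not tested. The replicate numbers did not pair the libraries (correlations of deviations of -0.020, 0.034 and 0.033), and with the replicate block 24 members were lower and 3 higher. Depth is unknown.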
